A study of Rattus norvegicus with 10 samples.

Results

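Eph receptors, their membrane-bound ligands the ephrins, and the kinase gene Fyn were followed in the hippocampus of young rats raised on solid or powdered feed. The genes considered were the receptor genes Epha3, Epha4, Epha5, Epha7, Ephb1 and Ephb2, the ligand genes Efna5, Efnb2 and Efnb3, and Fyn. Every probe set annotated with exactly 1 of these 10 symbols was taken, which gave 16 of the 31042 probe sets of the array and 8 of the 14217 genes named on it. Ephb2 and Efnb2 were not named by any probe set in the annotation used and were not analysed here. The rats were male Wistar rats that began at 3 weeks of age, first took powdered feed for acclimatization, and then received chow (C-group) or the powdered diet (P-group) freely for 8 days. At sampling they were 4 weeks old, and both groups shared the housing, the soft paper bedding and the cages built to limit chewing outside of meals. The hippocampus was dissected by hand, and 5 samples of each group, numbered C1 to C5 and P1 to P5, were measured on 1 Affymetrix rat genome array each. They are taken as 1 rat each, although the labels do not say so, and p-values measure only the spread between these samples. The array comparison asked which hippocampal mRNAs differ when young rats chew their feed.

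Eph receptors are the largest family of receptor tyrosine kinases, and they bind ephrins held on the surface of neighboring cells. A-type ephrins are tethered to the membrane by a lipid anchor and mainly bind EphA receptors. B-type ephrins span the membrane and mainly bind EphB receptors, and EphA4 binds ligands of both types. Binding sends a forward signal into the receptor's cell and a reverse signal into the ligand's cell. In the developing brain these signals guide axons, and in the hippocampus they act on dendritic spines and on synaptic plasticity, with EphA4 on neurons meeting ephrins on astrocytes. Fyn is a Src family kinase that is recruited by activated Eph receptors and by A-type ephrins, and it phosphorylates the GluN2 subunits of the NMDA receptor.

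Of the 16 probe sets, 4 carried measurable variation between the rats. They were those of Epha4 (1382908_at), Epha7 (1388061_a_at), Efna5 (1375647_at) and Fyn (1369103_at), with a standard deviation (SD) over the 10 rats from 0.17 to 0.34 log2 units. The deposited values come from a factor model, which leaves a probe set nearly flat unless a common signal is found in its probes. A probe set was termed variable when its SD over the 10 rats was above 0.01 log2 units, which held for 4 of these 16 and for 9.36% of all probe sets. The other 12 could hardly show a difference. Among them the SD was 0.0092 for Efnb3 and at most 0.0005 for the rest. No detection call accompanied the values, so whether a probe set at a low value was above background was not known. Values of different probe sets depend on probe affinity and were not compared as levels of mRNA.

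**Figure D1:**
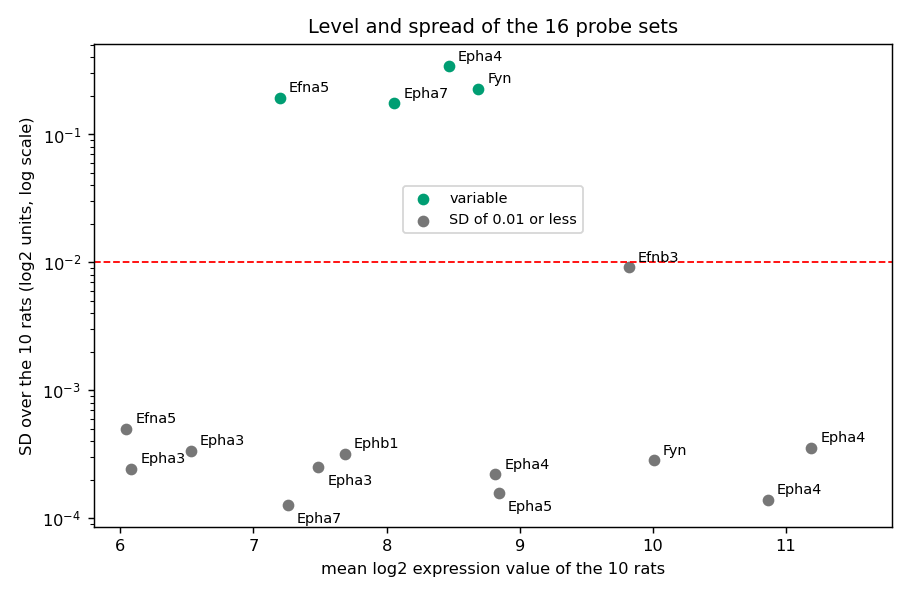
Mean log2 expression value (horizontal axis) and SD over the 10 rats (vertical axis, log scale, log2 units) of the 16 probe sets. An SD of 0.01 is drawn as a dashed red line. A single probe set each of Epha4, Epha7, Efna5 and Fyn lies above the line, Efnb3 lies just under it at 0.0092, and the other 11 probe sets lie at 0.0005 or less.

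Across the whole array, C1 stood apart. Of the 2904 variable probe sets, 53.5% had their maximum in this rat and 22.1% their minimum. In the check of the labeled tissue, 10 of 11 measured marker genes of hippocampal neurons had a probe set above the array's median. The same held for 8 of 8 astrocyte and 6 of 6 endothelial genes, and for 5 of 10 thalamic and 2 of 8 pineal genes. The check thus cannot tell hippocampus from other brain tissue. Camk2a, a kinase of excitatory synapses, was at 12.20, while the dentate marker Tdo2 was at 5.73. Lists of markers of other tissues were set beside the results. Rank products called 10 of 11 choroid plexus genes and 4 of 7 meningeal genes higher in the C-group. It also called 3 of 8 astrocyte and 1 of 6 striatal genes higher, and 5 of 8 pineal genes lower. In that order, 10, 5, 4, 3 and 7 of the genes had a variable probe set. Over all genes with a variable probe set, 20.1% were called higher and 4.97% lower. The pineal mean was 8.61 in P2 and from 6.08 to 6.18 in the other rats. The choroid plexus mean lay between 6.27 and 8.84 in the C-group and between 6.15 and 8.36 in the P-group. Of the 11 hippocampal neuron markers, 1 was called higher and 1 lower. None was called among 10 thalamic, 6 cortical, 7 oligodendrocyte, 6 microglial and 6 endothelial genes. Of these lists, 5, 5, 5, 2 and 0 genes, respectively, had a variable probe set. Every called probe set was variable, so the endothelial list could hardly give a call, and the microglial list had little room for one.

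Epha4 encodes the receptor with the broadest choice of ephrins, and its variable probe set showed the largest difference of the 16. Its log2 values were 8.99, 8.71, 8.65, 8.44 and 8.35 in C1 to C5. In P1 to P5 they were 8.82, 8.44, 8.31, 7.83 and 8.13. C1 was the highest rat, P1 came next, and P4 was the lowest, so that the groups overlapped, although every C-group rat lay above the median of the P-group. A C-group rat exceeded a P-group rat in 20 of the 25 possible comparisons. The C-group mean was 8.63 ± 0.25 (SD, n = 5) and the P-group mean 8.31 ± 0.37 (SD, n = 5). The difference was 0.32 log2 units, or 1.25-fold, with a standard error of 0.19 and a 95% interval from -0.12 to 0.77. Rank products, which ranks the sizes of the 25 differences between rats over all probe sets without dividing by their spread, called it higher in the C-group at a false discovery rate, or FDR, of 0.00867. limma, which weighs the difference against the spread between rats, gave an adjusted p = 0.927. Without C1 the difference was 0.23 and the FDR 0.0529, which ended the call, and without P4 the difference was 0.20. The other 3 probe sets of Epha4, at 11.19 (1390638_at), 10.86 (1375729_at) and 8.82 (1379970_at), hardly varied, with an SD from 0.00014 to 0.00036. The difference of Epha4 thus rested on 1 of its 4 probe sets.

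Fyn, the Src family kinase, was the other gene called higher in the C-group. The values of 1369103_at were 9.16, 8.77, 8.60, 8.96 and 8.44 in C1 to C5 and 8.67, 8.69, 8.59, 8.61 and 8.41 in P1 to P5. C1, C4 and C2 were above every rat of the P-group, whereas C3 and C5 lay within its range. The spread differed between the groups, with means of 8.79 ± 0.29 (SD, n = 5) and 8.59 ± 0.11 (SD, n = 5). The difference was 0.19 log2 units, or 1.14-fold, with a standard error of 0.13 and a 95% interval from -0.11 to 0.50 (FDR 0.0463 by rank products, adjusted p = 0.927 by limma). The call was lost without C1, C2, C4, P3 or P5, with an FDR of 0.183, 0.132, 0.251, 0.0654 and 0.111. Without C1 the difference was 0.098. The other probe set of Fyn (1373683_at), at 10.01, had an SD of 0.00028 and was not called.

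Epha7 encodes an EphA receptor with known full-length and truncated forms. Its variable probe set, 1388061_a_at, was at 7.77, 7.93, 8.35, 8.17 and 8.11 in C1 to C5. In P1 to P5 it was at 7.87, 7.99, 8.13, 8.22 and 8.04. C1 was the lowest rat and C3 the highest, so the C-group spanned the whole range of the P-group. The means were 8.07 ± 0.22 (SD, n = 5) and 8.05 ± 0.13 (SD, n = 5). Their difference was 0.018 log2 units with a standard error of 0.11, and its 95% interval ran from -0.24 to 0.28 (adjusted p = 0.982 by limma). Rank products did not call it (FDR 0.306 for higher and 0.84 for lower). The difference turned negative without C3, C4 or P1, at -0.054, -0.0076 and -0.028. The other Epha7 probe set (1369096_at), at 7.26, had an SD of 0.00013.

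Efna5, the gene of the lipid-anchored ligand ephrin-A5, was spread most by a single rat. The values of 1375647_at were 7.37, 7.42, 6.72, 7.21 and 7.25 in C1 to C5 and 7.21, 7.35, 7.15, 7.20 and 7.11 in P1 to P5. C3 was far below the others, and C1 and C2 were above all P-group rats. The means were 7.20 ± 0.28 (SD, n = 5) and 7.20 ± 0.091 (SD, n = 5), and they differed by -0.0056 (standard error 0.13), with a 95% interval from -0.29 to 0.28. Neither rank products (FDR 0.143 for higher and 0.952 for lower) nor limma (adjusted p = 0.995) called it. The difference was 0.11 without C3 and 0.031 without P2, and the difference of medians was 0.050. The other Efna5 probe set (1369594_at), at 6.04, had an SD of 0.0005.

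**Figure D2:**
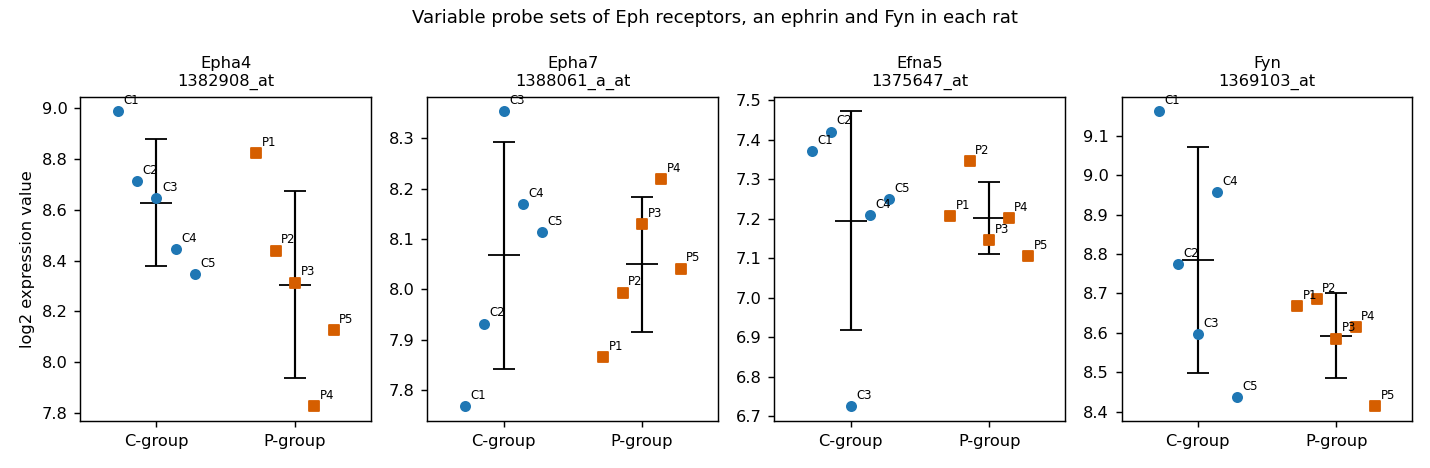
Log2 expression values (vertical axis) of the 4 variable probe sets in each rat of the C-group (blue circles) and of the P-group (orange squares), with the group mean and SD as black bars. The groups overlap in all 4, C1 is the highest rat for Epha4 and Fyn and the lowest for Epha7, and C3 is the lowest for Efna5 at 6.72.

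The remaining genes had no variable probe set. Efnb3, the gene of the membrane-spanning ligand ephrin-B3, lay just under the limit of 0.01. It was at 9.82, 9.82, 9.81, 9.81 and 9.81 in C1 to C5 and at 9.83, 9.81, 9.81, 9.83 and 9.83 in P1 to P5. The groups differed by -0.0061 log2 units, standard error 0.0056 (adjusted p = 0.927 by limma), and no call was made. Epha3, an EphA receptor gene, had 3 probe sets at 7.49, 6.53 and 6.08. Epha5 was measured by a single probe set at 8.84, and Ephb1, a receptor for B-type ephrins, by 1 at 7.69. These 5 probe sets and the 6 invariable ones of Epha4, Epha7, Efna5 and Fyn differed between the groups by at most 0.00031 log2 units. Such values show neither a difference nor its absence.

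In total, rank products called 2 of the 16 probe sets higher in the C-group, those of Epha4 and Fyn, and 0 lower. Over all 31042 probe sets it called 2.0% higher and 0.416% lower. Every called probe set was variable, and against the 2904 variable probe sets the shares were 21.3% higher and 4.44% lower, beside 2 and 0 of the 4 variable ones here. limma called 0 of the 16, and 0.00% of all probe sets, at an adjusted p under 0.05. At an unadjusted p under 0.05 limma passed 0 of the 16 and 915 of all 31042, a share below the limit of 0.05 itself. The median difference of the 4 variable probe sets was 0.11 log2 units and that of all variable probe sets 0.066, and 68.3% of all variable probe sets were higher on average in the C-group. In none of the 4 were the groups free of overlap, and over all variable probe sets that share was 0.207%. The calls of Epha4 and Fyn were both lost when only variable probe sets were ranked or when ranks were summed.

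**Figure D3:**
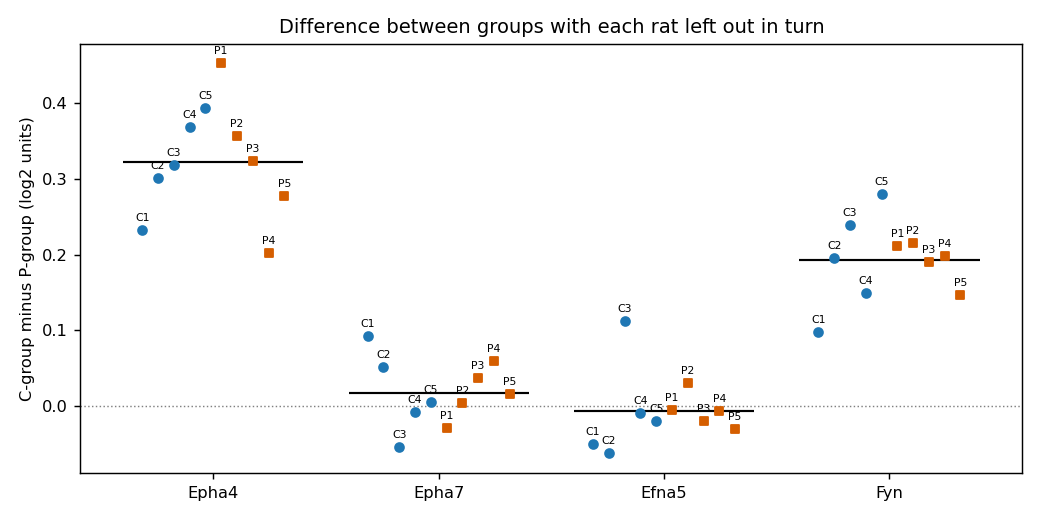
Difference between the group means (vertical axis, C-group minus P-group, log2 units) of the 4 variable probe sets with each rat left out in turn, named above each point. Blue circles leave out a rat of the C-group and orange squares a rat of the P-group, and black lines give the difference over all rats. Epha4 stays between 0.20 and 0.45 and Fyn between 0.098 and 0.28, while Epha7 and Efna5 lie on either side of 0.

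Correlations among the 4 variable genes differed in sign and moved when a single rat was left out. They are descriptions over 10 rats of 1 array each, in which C1 has a large part. Epha4 and Fyn ran partly together (Pearson's r = 0.60, and 0.37 without C1). Epha7 ran against the other 3, with r = -0.58 to Epha4, -0.74 to Efna5 and -0.47 to Fyn. Without C3 these were -0.87, -0.56 and -0.49, and without C1 they were -0.39, -0.72 and -0.086. Efna5 had r = 0.15 with Epha4, which became 0.61 without C3 and -0.019 without C1. With Fyn it had r = 0.41, or 0.57 without C3 and 0.28 without C1. The receptor gene Epha7 and the ligand gene Efna5 thus took opposite ends in C3, where Epha7 was highest and Efna5 lowest.

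The probe sets most like each of the 4 were sought among 2039 variable probe sets of other genes. For Epha4 they were those of Atrx, a chromatin remodeler, Btbd3, a regulator of dendrite orientation, and Grin2a, an NMDA receptor subunit, with r = 0.98, 0.98 and 0.97. For Fyn they were Ptprd, a synaptic receptor phosphatase, Ankrd11, a chromatin regulator, and Eml4, a microtubule-associated protein, with r = 0.95, 0.94 and 0.94. For Epha7 they were Limd2, Arpc2, a subunit of the Arp2/3 complex that nucleates actin, and Ppl, a plakin, with r = 0.96, 0.95 and 0.95. Efna5 was matched less closely, with r = 0.88, 0.88 and 0.87 for Garnl3, Car10 and Dusp26. The highest of so many correlations over 10 rats is large by its selection.

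Markers of other cell types moved with several of these genes. In whole tissue, fewer cells of a type and less RNA per cell cannot be told apart. The mean of the 4 variable astrocyte probe sets, of 8 measured astrocyte genes, ran with Epha4 (r = 0.95 over the 10 rats) and less closely with Fyn (r = 0.74). That mean ranged from 9.73 to 10.13 in the C-group and from 9.53 to 10.003 in the P-group. Of its genes, the glutamate transporter Slc1a3, the water channel Aqp4 and the gap junction gene Gja1 were called higher in the C-group. Their differences were 0.27, 0.32 and 0.22 log2 units, each from 1 probe set. Brighter probe sets of the same genes, at 11.46, 11.71 and 12.27, hardly varied, with an SD from 0.00010 to 0.00022. Gfap, an intermediate filament gene, differed by -0.15 and was not called. Gfap ran against Epha4 and Fyn (r = -0.50 and -0.73), whereas Aqp4, Slc1a3 and Gja1 ran with Epha4 (r = 0.93, 0.81 and 0.65). The mean of the 6 variable oligodendrocyte probe sets ran against Epha4 (r = -0.69) and with Epha7 (r = 0.78). It lay between 11.08 and 11.44 in the C-group and between 11.10 and 11.42 in the P-group. Of the 6, 5 had r below 0 with Epha4, and the values ran from -0.77 to 0.10. With Epha7, 5 had r above 0, and the values ran from -0.092 to 0.82. Bright probe sets of Mbp and Mobp, at 13.70 and 12.86, hardly varied. The part of these cell types in the differences of Epha4 and Fyn was not tested.

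Epha7 and Efna5 followed the mean of the hippocampal neuron markers in opposite directions. The mean of the 14 variable probe sets of that list had r = -0.82 with Efna5 and 0.60 with Epha7. For Epha7 this was not particular to the neuron list. Its r was 0.78 with the oligodendrocyte mean, -0.71 with the astrocyte, -0.67 with the microglial and -0.60 with the striatal mean. The mean of the neuron list ranged from 9.33 to 9.62 in the C-group and from 9.29 to 9.47 in the P-group, with its highest value in C3. The list was not uniform. Of the 14 probe sets, 10 had r above 0 with Epha7, from 0.092 for Neurod6 to 0.92 for Prox1, a marker of dentate granule cells. The other 4 were Fibcd1, a CA1 marker (r = -0.36), and 3 of the 4 variable probe sets of Zbtb20 (r = -0.48, -0.63 and -0.17). With Efna5, 11 of the 14 had r below 0, and the values ran from -0.82 to 0.15. Efna5 ran with the means of the cortical and striatal lists (r = 0.67 and 0.68), which have 5 and 3 variable genes, and their lowest values in the C-group were both in C3. The choroid plexus and pineal lists, on which C1, C2, C5 and P3, and P2, respectively, stood high, had r from -0.39 to 0.38 with the 4 genes. The part of these cells in Epha7 and Efna5 was not tested.

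**Figure D4:**
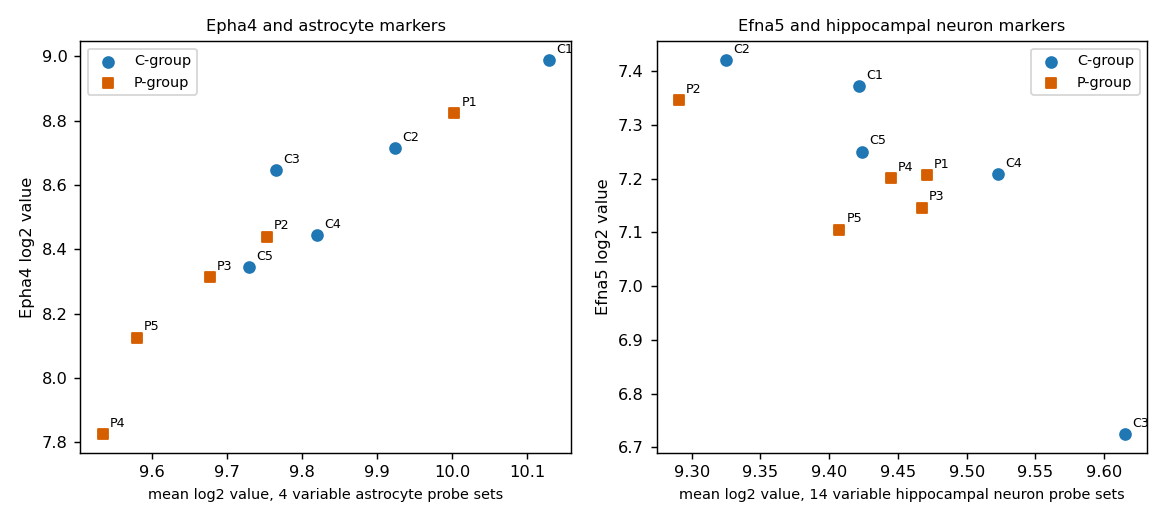
Log2 value of Epha4 against the mean log2 value of the 4 variable astrocyte probe sets (left), and of Efna5 against the mean of the 14 variable probe sets of hippocampal neuron markers (right), in each rat of the C-group (blue circles) and of the P-group (orange squares). Epha4 climbs with the astrocyte mean from P4 to C1 (r = 0.95), and Efna5 is lowest in C3, where the neuron marker mean is highest (r = -0.82).

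Other genes of the pathway were counted in 3 lists. In the list of other Eph receptors and ephrins, 10 of 13 genes were measured (Epha2, Epha6, Epha8, Epha10, Ephb3, Ephb4, Ephb6, Efna1, Efna4 and Efnb1). None of their 12 probe sets was variable, and none was called. The list of Eph and ephrin signaling held 39 measured genes of 40, of which 11 were variable, 1 was called higher and 0 lower. Over all genes with a variable probe set, 20.1% were called higher and 4.97% lower. The called gene was Rhoa, the small GTPase that forward signaling activates to contract the growth cone. The call came from 1 of the 2 Rhoa probe sets. Rhoa was at 9.42, 9.07, 9.21, 9.26 and 9.29 in C1 to C5 and at 9.03, 9.05, 9.19, 9.19 and 9.14 in P1 to P5, higher by 0.13 (standard error 0.064, FDR 0.0315). Further variable genes of the list were Ngef, the ephexin that couples EphA4 to Rhoa (difference 0.11, standard error 0.077, FDR 0.0515), Chn2, a chimaerin (0.14, standard error 0.10), Sipa1l1, a postsynaptic Rap regulator (0.043, standard error 0.031), and Anks1b, a postsynaptic adaptor (0.056, standard error 0.053). None of these 4 was called, although Ngef was called with another random draw of the permutations. Of the 12 variable probe sets, 8 were higher on average in the C-group and 4 lower. The lower ones, named after their values were seen, were those of Tiam1, an exchange factor for Rac (-0.27 and -0.023, standard errors 0.36 and 0.10), the kinase Abl2 (-0.17, standard error 0.18) and the kinase Pak1 (-0.076, standard error 0.14), and none was called. The median difference of the 12 variable probe sets of this list was 0.056 log2 units, against 0.066 for all variable probe sets.

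The list of Src family kinases and partners of Fyn held 21 measured genes of 22, of which 6 were variable, 4 were called higher in the C-group and 0 lower. These counts stand beside the same 20.1% and 4.97%. The list was chosen with earlier results of these data known, so the comparison is not an independent one. Grin2a, an NMDA receptor subunit that Fyn phosphorylates, was at 8.42, 8.16, 8.13, 7.87 and 7.67 in C1 to C5 and at 8.45, 7.99, 7.59, 7.11 and 7.61 in P1 to P5. Its highest rat was P1 and its lowest P4, and the groups differed by 0.30 (standard error 0.25, FDR 0.00867). Cbl, a ubiquitin ligase that limits tyrosine kinases, differed by 0.25 (standard error 0.16, FDR 0.0252). Reln, the secreted protein whose signal Src family kinases relay, differed by 0.19 (standard error 0.12, FDR 0.0416), and Dab1, the adaptor that Fyn phosphorylates in that pathway, by 0.23 (standard error 0.25, FDR 0.0315). Each of these 4 calls rested on 1 probe set of the gene, out of 3 for Grin2a, 4 for Cbl, 4 for Dab1 and 2 for Reln. Grin2b and Matk, at 0.13 and 0.049 (standard errors 0.11 and 0.055), were not called. The median difference of the 7 variable probe sets of the list was 0.19 log2 units, against 0.066 for all variable probe sets. Over all 3 lists no gene passed limma (lowest adjusted p = 0.927). Without C1 or without C2, Grin2a alone of the 5 called genes was called, and with only variable probe sets ranked none was.

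**Figure D5:**
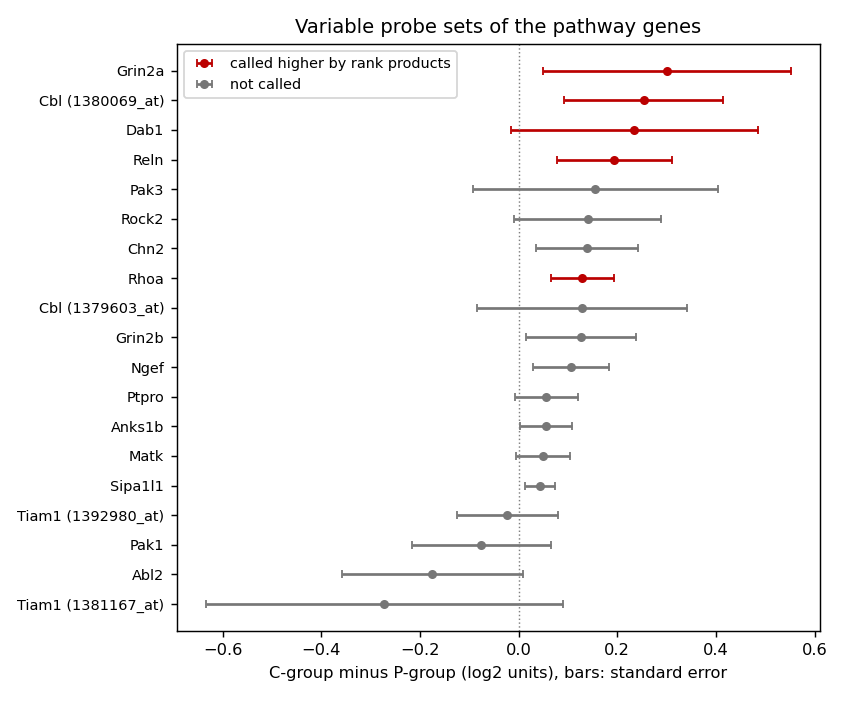
Difference between the groups (horizontal axis, C-group minus P-group, log2 units) with its standard error for the 19 variable probe sets of the 3 pathway lists. Red points were called higher by rank products and gray points were not called. Of the 19, 15 lie above 0, and the largest difference is that of Grin2a at 0.30.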

How the data were processed

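Hippocampal RNA (100 ng) of 10 rats was hybridized to 1 Affymetrix rat genome array each. Summaries by qFARMS (quantile normalization and a factor model, R 2.7.2) were deposited as log2 values by the authors, which were used as given. Gene names came from the platform annotation, and all 16 probe sets matched the RefSeq gene table of assembly GRCr8 by gene identifier and symbol. The 57 control probe sets were left out. Arrays give no read depth, and 5 rats per group limit the precision.

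Rank products, the method of the study, was run in Python 3.11.15 (numpy 2.4.6) over 31042 probe sets, without pairing, from 25 differences and 100 permutations of values within arrays (FDR under 0.05 in each direction). limma 3.58.1 in R 4.3.3 gave standard errors, intervals and Benjamini-Hochberg adjusted p-values. Both were run on simulated data with probe sets drawn independently of each other. Those data lacked variation shared across an array, such as that of C1, so they do not check the FDR here. Correlations have no p.

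All probe sets of the named genes were described. From each pathway list, called genes and up to 4 further variable genes with the smallest limma p were named. The genes, lists and marker sets were chosen with earlier results of these data known. Alternatives changed the normalization, filters, statistic, pairing and rats. No sequence is shown, since probe sequences were not used here.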

Additional observations from a re-analysis of the deposited data

Results flagged for a closer look

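In 30 groups of 5 rats of the probe sets described, 2 held a rat whose gap to its nearest neighbor took an unusually large part of the range of its group (Dixon's test, of which chance passes about 1 in 20). Grin2b was 8.98 in P1 and from 8.50 to 8.60 in P2 to P5. Without P1 its difference was 0.21 in place of 0.13. Matk was 9.51 in C1 and from 9.30 to 9.36 in C2 to C5. Leaving out C1 took its difference from 0.049 to 0.011. None of the 4 variable probe sets of Epha4, Epha7, Efna5 and Fyn was among them.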

How the results depend on the processing

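Epha4 and Fyn were both called with median-centred arrays, quantile normalization and another random draw, and limma called none of the 16 probe sets under any alternative. Of the 2 calls, 0 were left with only variable probe sets or with rank sums, 1 with only the probe sets above the median mean, and 0 to 2 with a rat left out. The 5 pathway genes called higher became 0, 0 and 1 under the first 3 of these and 1 to 9 with a rat left out, when 0 to 1 were called lower, and 6 with another random draw, which added Ngef. The ranges over rats were -0.054 to 0.093 for Epha7 and -0.062 to 0.11 for Efna5, whose difference of medians was 0.050. Over all probe sets, higher and lower calls numbered 620 and 129, but 9 and 0 with only variable probe sets, 157 and 38 with the brighter ones, 4 and 2 with rank sums, 79 and 164 without C1, and 912 and 338 with the replicate block. With that block, 2 of the 16 probe sets (FDR 0.00054 for Epha4 and 0.00589 for Fyn), 10 pathway genes higher and 1 lower were called. In limma the block gave Epha4 a standard error of 0.074 in place of 0.19, with an adjusted p = 0.818. The sources do not say whether the numbers pair the rats, so the numbers were taken as names. The correlations of same-numbered rats, which were not of the raw log2 values, were 0.28, -0.011, -0.39, 0.48 and 0.45. These do not settle whether the rats were paired. The cause of these changes was not tested.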

Other observations

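Zbtb20, a transcription factor gene on the list of hippocampal neuron markers, had 4 variable probe sets. Of these, 3 ran with Epha4 (r = 0.92, 0.92 and 0.78) and were called higher in the C-group. The remaining one ran against Epha4 (r = -0.51) and was not called. Of the 14 variable probe sets of that list, 10 had r below 0 with Epha4 and 4 above, and the list mean had r = 0.043. The nearly constant probe sets of Fyn, Epha7 and Efna5 had r = 0.85, 0.65 and 0.26 with the variable one of the same gene over the 10 rats, and the 3 of Epha4 had r = -0.48, -0.075 and -0.21. Their SD was 387 to 2454 times smaller, so that these values carry little weight.

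The SD was larger in the C-group than in the P-group for Fyn, Efna5 and Epha7, by 2.66, 3.04 and 1.67 times, and smaller for Epha4, at 0.68 times. A larger SD in the C-group was found in 75.2% of all variable probe sets, with a median ratio of 1.49, and 21.4% had a ratio above that of Fyn.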
